A study of Homo sapiens with 3 samples.

Results

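Many splicing factor genes make, beside their coding mRNA, transcripts that keep an intron or that carry no defined reading frame. The set described here holds 50 such transcripts of 31 genes, out of 9609 features with 10 or more counts in at least 1 of the 3 libraries. They were chosen by 3 criteria. GENCODE release 44 types the transcript as retained intron, nonsense-mediated decay or protein coding with no defined coding sequence, its gene name begins with SRSF, TRA2, CLK, HNRNP, SF3, U2AF, PRPF, RBM or DDX, and it had 10 or more counts in at least 1 library. GENCODE lists 1128 transcripts of those types for genes of those names. Of these, 759 have a row in the count table, 328 had any count and 50 met the threshold. Of the 50 members, 42 are retained-intron transcripts and 8 have no defined coding sequence. Nonsense-mediated decay transcripts are absent, since 6 of the 316 annotated ones have a row and 0 of these had a count. The name prefixes also take in genes that work outside splicing, such as DDX6 of mRNA decay and RBM47 of RNA editing, so the set is one of RNA-binding and helicase families rather than of splicing factors alone.

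The libraries are RNA-seq of THP-1 cells, an acute monocytic leukemia line driven by the MLL-AF9 fusion. The control library (0 h) came from untreated cells, and the other libraries from cells treated with 0.2 µM GSK-LSD1, an inhibitor of the histone demethylase LSD1, for 8 h or 24 h. There was 1 library per time point, so nothing here has a replicate check, no p-value was computed, and every difference is one between libraries. The 8 h and 24 h libraries were compared with the same 0 h library, so these comparisons are not independent of each other. Libraries were made from total RNA after ribosomal RNA depletion, which keeps unspliced nuclear RNA. In the order 0 h, 8 h and 24 h, the table held 1475938, 1310912 and 1444011 counts, and series of 3 values keep this order below. Members held 1618, 1002 and 1122 of them, that is 0.110%, 0.0764% and 0.0777%. A count of 0 allows up to 3 counts, or 1.95, 2.34 and 2.11 CPM (counts scaled to the library size) in the same order. The libraries also differed in mitochondrial ribosomal RNA, with 1661, 9 and 743 counts on MT-RNR2. Scaled to total counts, the members' median log2 fold changes were -0.46 at 8 h and -0.35 at 24 h, both with and without mitochondrially encoded genes. KDM1A, the gene of the inhibited enzyme LSD1, had 9, 4 and 7 counts on its named transcripts. Of 9 monocytic and myeloid markers, 4 had counts on named transcripts (CD33, PTPRC, CSF1R and ITGAM, 93, 63 and 58 counts in sum). T cell, erythroid and epithelial markers had 0 counts.

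Introns are removed by the spliceosome, which reads a donor site at the start of the intron and an acceptor site at its end. SR proteins (SRSF and TRA2) and hnRNPs bind the pre-mRNA and favour or repress the use of such sites, and CLK kinases phosphorylate SR proteins. Several of these factors act on their own pre-mRNA, and transcripts that keep an intron often stay in the nucleus or are degraded, so they give little or no protein.

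What a member count holds follows from how reads were divided between overlapping transcripts. Exon bases that no other annotated transcript covers on the same strand are called own bases here. Among all transcript rows matched to GENCODE, 2.72% of those with 0 own bases had a count, against 15.7% with 1 to 99 own bases, 33.5% with 100 up to 500 and 39.9% with 500 or more. Rows with 200 or more own bases on their strand had a count in 48.7% of cases where an antisense transcript covered all of these bases, and in 38.3% where own bases also remained over both strands. All 50 members had own bases, with a median of 1040.5 (58 to 5282). Of 65400 own bases in the set, 95.8% lay inside introns of coding transcripts of the same gene, and for 47 members all of them did. The exceptions are HNRNPU, where the transcript ENST00000640657.1 has own bases outside coding introns, 1 of the DDX55 members (ENST00000542286.5) and 1 of the CLK3 members (ENST00000564353.5). A member's count is therefore largely a count of intron reads. Reads of the annotated transcript and of unspliced precursor RNA cannot be told apart in these counts.

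Of the named members that keep a whole intron of the coding transcript, the 6 with the most counts are shown by the borders of that intron, because member counts are largely counts of intron reads. Members of RBM25, CLK2 and HNRNPH1 keep 4, 3 and 11 whole introns, of which 1 each is shown. Each donor line gives the last 20 exon bases and the first 60 intron bases, and each acceptor line the last 80 intron bases and the first 20 exon bases, 5′ to 3′ on the gene's strand of GRCh38 (hg38). Capitals mark the GT and AG at the intron ends.
DDX17 donor, chr22:38491996-38492075, - strand: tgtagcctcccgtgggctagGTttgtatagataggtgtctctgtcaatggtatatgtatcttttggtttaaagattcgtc
DDX17 acceptor, chr22:38488096-38488195, - strand: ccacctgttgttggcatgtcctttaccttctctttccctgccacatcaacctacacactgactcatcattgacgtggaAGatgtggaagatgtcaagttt
TRA2B donor, chr3:185923736-185923815, - strand: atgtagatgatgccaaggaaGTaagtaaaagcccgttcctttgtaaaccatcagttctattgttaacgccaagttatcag
TRA2B acceptor, chr3:185922107-185922206, - strand: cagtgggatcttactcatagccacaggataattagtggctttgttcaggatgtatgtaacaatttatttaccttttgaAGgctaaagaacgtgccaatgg
SRSF4 donor, chr1:29160315-29160394, - strand: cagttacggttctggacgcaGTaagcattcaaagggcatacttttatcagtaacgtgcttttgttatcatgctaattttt
SRSF4 acceptor, chr1:29159467-29159566, - strand: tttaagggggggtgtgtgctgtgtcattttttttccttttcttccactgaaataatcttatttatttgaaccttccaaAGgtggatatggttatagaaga
RBM25 donor, chr14:73099731-73099810, + strand: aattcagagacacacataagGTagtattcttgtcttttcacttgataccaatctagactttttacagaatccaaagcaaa
RBM25 acceptor, chr14:73103112-73103211, + strand: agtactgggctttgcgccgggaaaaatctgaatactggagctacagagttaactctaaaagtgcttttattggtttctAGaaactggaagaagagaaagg
HNRNPH1 donor, chr5:179619209-179619288, - strand: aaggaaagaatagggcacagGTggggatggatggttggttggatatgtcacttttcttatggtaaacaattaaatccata
HNRNPH1 acceptor, chr5:179618304-179618403, - strand: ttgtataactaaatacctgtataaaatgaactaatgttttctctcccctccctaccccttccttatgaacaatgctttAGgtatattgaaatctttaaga
CLK2 donor, chr1:155268648-155268727, - strand: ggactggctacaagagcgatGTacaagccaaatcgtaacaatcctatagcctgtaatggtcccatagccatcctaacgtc
CLK2 acceptor, chr1:155268340-155268439, - strand: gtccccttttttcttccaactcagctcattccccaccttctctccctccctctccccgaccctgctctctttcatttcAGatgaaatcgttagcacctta

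The DDX17 intron spans 3940 bases (chr22:38488116-38492055) and is intron 11 of 12 of the coding transcript, and 69.5% of it are own bases of the member. The TRA2B intron (chr3:185922127-185923795, 1669 bases) is intron 4 of 8, and 100% of it are own bases of ENST00000466832.5. The SRSF4 intron is intron 2 of 5 (chr1:29159487-29160374, 888 bases), with 67.0% own bases. The RBM25 intron is intron 9 of 18 (chr14:73099751-73103191, 3441 bases), the HNRNPH1 intron is intron 4 of 12 (chr5:179618324-179619268, 945 bases) and the CLK2 intron is intron 4 of 12 (chr1:155268360-155268707, 348 bases). Own bases make up 58.5% of the RBM25 intron, 21.3% of the HNRNPH1 intron and 100% of the CLK2 intron. These 6 introns differ in their donor sites. TRA2B begins with GTAAGT, the letters best matched to U1 snRNA, SRSF4 with GTAAGC, RBM25 with GTAGTA, HNRNPH1 with GTGGGG, CLK2 with GTACAA and DDX17 with GTTTGT. Whole coding introns lay within an exon of 20 of the 50 members (40%), against 38.9% of the 1372 transcripts of the same 3 types in other genes. Of 53 such introns, 52 begin with GT and end with AG, and their median length was 641 bases (76 to 3940). The median GC content of the members was 43.1%, against 47.2% in the other genes. Exons of another gene, on either strand, overlap 12 members.

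**Figure D1:**
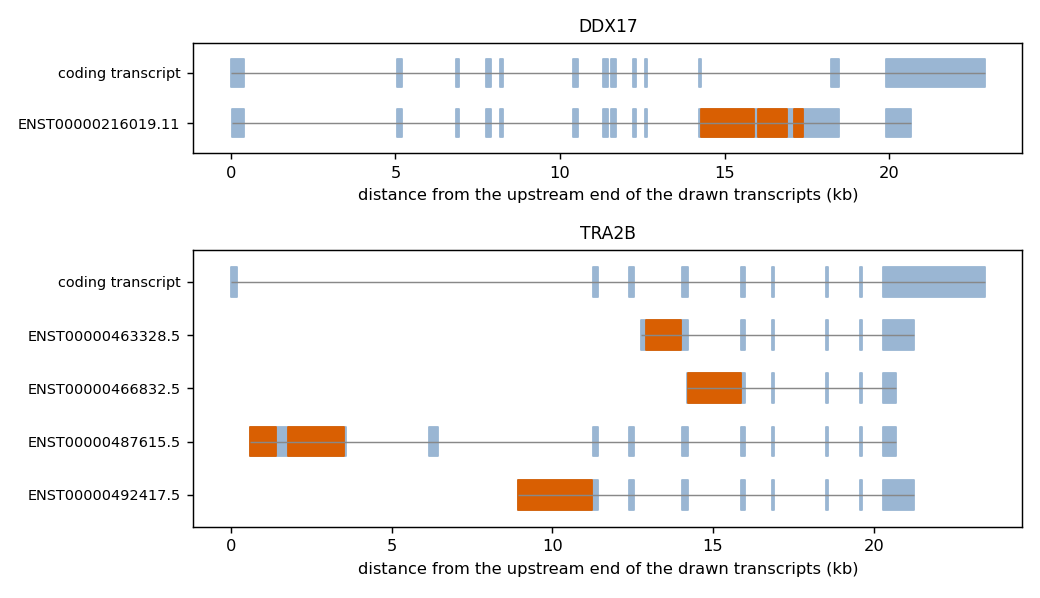
Exon maps of the DDX17 and TRA2B members below the coding transcript of each gene, drawn 5′ to 3′ with distance in kb from the upstream end of the drawn transcripts. Blue boxes are exons, thin lines introns and orange boxes the own bases that no other annotated transcript covers on that strand. The orange stretches lie in introns of the coding transcript.

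At both time points the member transcripts were, in sum, lower than in the control library. The members together had 1053 CPM at 0 h, 783 at 8 h and 790 at 24 h. For this scaling, TMM factors from edgeR were used. The log2 ratio of the summed counts was -0.43 at 8 h (95% counting interval -0.54 to -0.31) and -0.41 at 24 h (-0.53 to -0.30). Intervals of ratios are exact (Clopper-Pearson). They reflect counting error alone, and PCR copies of a molecule could not be removed. Fewer cells with such RNA and less of it per cell cannot be told apart in bulk samples. From 8 h to 24 h the sum was level, with a log2 ratio of 0.01 (-0.11 to 0.14).

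DDX17 alone accounted for much of this decrease. Without its member the log2 ratios of the sum were -0.27 (-0.39 to -0.14) at 8 h and -0.26 (-0.38 to -0.14) at 24 h. With the 4 TRA2B members left out as well they were -0.29 and -0.29. DDX17 and TRA2B were left out after their values were seen.

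Most members were lower by value at each time point taken alone, as were most transcripts of their types in other genes. For single transcripts, a log2 fold change is the difference of log2 CPM, with 2 counts added as a prior. Its median over the 50 members was -0.37 at 8 h and -0.28 at 24 h. Over all 9609 features the medians were -0.01 and -0.01, and over the 1372 transcripts of the same types in other genes -0.20 and -0.17. Of the members, 38 were lower at 8 h (76%) and 31 at 24 h (62%). Of all features 51.1% and 50.8% were lower, and of the same types in other genes 62.7% and 58.8%. Such transcripts were thus lower in other genes too. Among retained-intron transcripts alone, the medians were -0.25 and -0.16 in the members and -0.20 and -0.17 in other genes, so at 24 h these were alike by value. The summed counts of the same types in other genes had log2 ratios of -0.20 and -0.16, while the sum over all features had ratios of 0.09 and 0.08. For long non-coding RNAs the medians were -0.02 and 0.04. From 8 h to 24 h, 21 members were lower and 29 higher, while 45.5% of the same types in other genes were lower. With a loess correction for level the direction turned, with 27 lower and 23 higher.

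**Figure D2:**
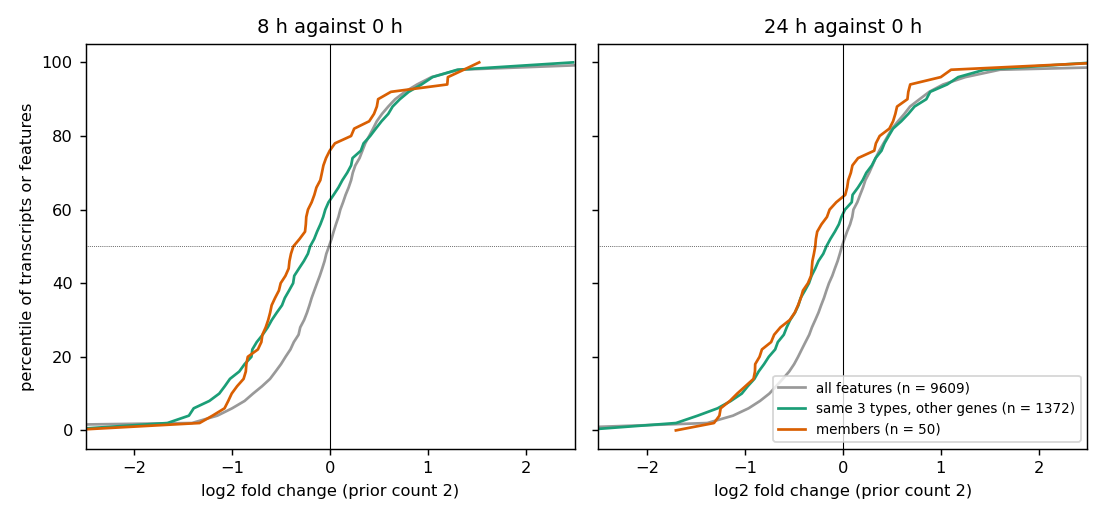
Cumulative distribution of the log2 fold change (x axis, prior count 2) at 8 h and 24 h against 0 h for the 50 members, the 1372 transcripts of the same types in other genes and all 9609 features, with the percentile on the y axis. The medians of the members were -0.37 at 8 h and -0.28 at 24 h, left of the other curves.

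Few single members changed by a large factor. At 8 h against 0 h, 4 members had a log2 fold change over 1 and 6 one under -1, against 4.51% and 6.02% of all features. Their transcripts belong to CLK3, HNRNPU, RBM47 and SRSF3 on the higher side, and to DDX17, HNRNPH1, PRPF38B, RBM39, SRSF11 and TRA2B on the lower side. Those of HNRNPU and SRSF3 reached 10 counts at 8 h alone, and those of HNRNPH1, RBM39 and SRSF11 at 0 h alone. Each of these had to have its most counts there. At 24 h, 2 members (CLK3 and RBM47) were over 1 and 6 under -1, against 6.19% and 5.58% of all features. Those under -1 belong to CLK2, DDX17, PRPF3 and SRSF11 and, with 2 transcripts, to HNRNPH1. The PRPF3 and SRSF11 transcripts and ENST00000513972.5 of HNRNPH1 reached 10 counts at 0 h alone, and RBM47 at 24 h alone. They too had to have their most counts there. Of the same types in other genes, 5.10% were over 1 and 14.5% under -1 at 8 h, and 6.41% and 11.6% at 24 h. The 12% of members under -1 at either time point therefore lies near the share for transcripts of their type. From 8 h to 24 h, 4 members (DDX60L, RBM47, RBM5 and SRSF3) were over 1 and 1 (SRSF3) under -1, against 4.03% and 1.97% of all features and 7.07% and 4.08% of the same types in other genes. The RBM47, RBM5 and higher SRSF3 transcripts reached 10 counts at 24 h alone, and the lower SRSF3 transcript at 8 h alone. They had to have their most counts in that library.

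By counting error, the interval lay wholly below 0 for 5 members at 8 h and for 8 at 24 h. It lay wholly above 0 for 1 member (CLK3) at 8 h and for 2 (DDX6 and RBM47) at 24 h. Among all features 9.71% had an interval below 0 and 11.7% above 0 at 8 h, and 12.6% and 13.0% at 24 h. Among the same types in other genes these shares were 8.75% and 3.35% at 8 h, and 8.82% and 4.30% at 24 h. The 5 members below 0 at 8 h were those of DDX17, RBM25 and SRSF11 and 2 of HNRNPH1. Of these, SRSF11 and ENST00000513972.5 of HNRNPH1 reached 10 counts at 0 h alone, so they had to be highest there. The 8 members below 0 at 24 h were those of CLK2, DDX17, RBM25, SRSF10 and SRSF11, ENST00000467329.5 of PRPF3 and 2 of HNRNPH1. The same limit holds there for SRSF11, ENST00000513972.5 and ENST00000467329.5. RBM47, above 0 at 24 h, reached 10 counts at 24 h alone. From 8 h to 24 h, the interval was above 0 for 2 members (RBM47 and DDX60L) and below 0 for 1 (SRSF10), against 4.87% and 5.58% of all features and 2.41% and 1.24% of the same types in other genes.

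The threshold on counts bears on these numbers. Of the 50 members, 25 reached 10 counts in all 3 libraries. A member that reached 10 counts in a single library had to be highest there, and this held for 8 members at 0 h, 2 at 8 h and 5 at 24 h. The highest CPM was at 0 h for 29 members, at 8 h for 7 and at 24 h for 14. The 29 (58%) were lower than 0 h at both time points, which held for 49.1% of the same types in other genes. Just inside the threshold, with a highest count of 10, lie 5 members, among them those of HNRNPU and RBM5 and 2 of SRSF3, with 18 to 28 counts over the libraries. Just outside, with a highest count of 9, lie 9 transcripts (DDX17 with 2, DDX60L, HNRNPAB, HNRNPH3, PRPF8, SF3B3, SRSF11 and TRA2A), with 17 to 25 counts. The 278 transcripts of these genes' families that had counts but stayed under 10 in every library summed to 599, 399 and 467 counts, with log2 ratios of -0.32 (-0.51 to -0.14) and -0.25 (-0.42 to -0.07). The 77 of them in genes with a member had log2 ratios of -0.50 (-0.82 to -0.18) and -0.45 (-0.75 to -0.14). The 201 in genes without a member had -0.23 (-0.46 to 0.00) and -0.14 (-0.36 to 0.08), within counting error.

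**Figure D3:**
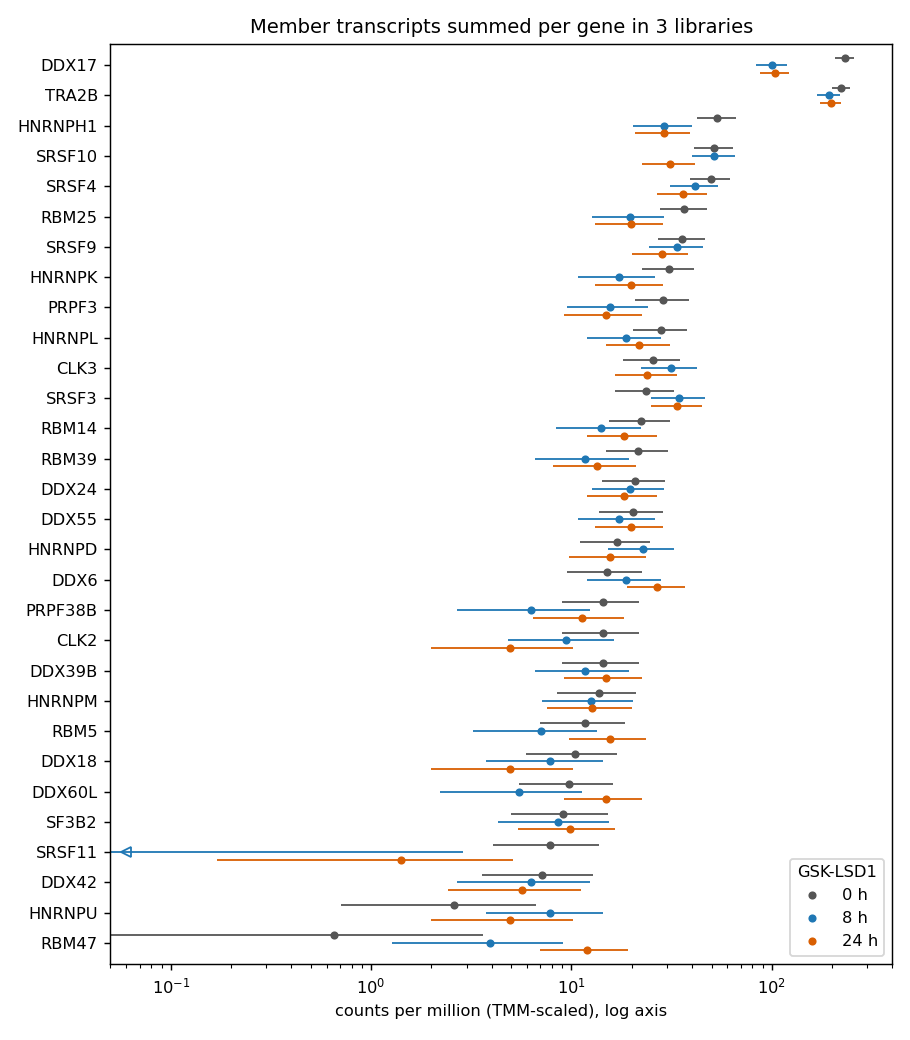
CPM of the member transcripts summed per gene (log x axis) in the 0 h, 8 h and 24 h libraries for the genes reported here, ordered by the level at 0 h, with exact 95% counting intervals as bars. An open triangle marks SRSF11 at 8 h, where the count was 0. DDX17 and TRA2B lie above all other genes in every library.

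Per gene, the members of 23 of the 31 genes were lower at 8 h than at 0 h and those of 22 were lower at 24 h. The counting interval was below 0 for 6 genes at 8 h and for 7 at 24 h, and above 0 for 0 genes at 8 h and 2 at 24 h. Of all single features, 51.1% were lower at 8 h and 50.8% at 24 h. Of the same types in other genes, 62.7% and 58.8% were lower. The interval of all features was below 0 for 9.71% and 12.6%, and above 0 for 11.7% and 13.0%. Among the genes off 0, SRSF11 and PRPF3 have only members that reached 10 counts at 0 h alone. The RBM47 member did so at 24 h alone. Such members had to have their most counts in that library. DDX17 and TRA2B held more member counts than any other gene, 630 and 867 of 3742 over the libraries. The 15 genes described below had 100 or more member counts over the libraries or an interval on 1 side of 0, and the other 16 genes are given by their range.

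**Figure D4:**
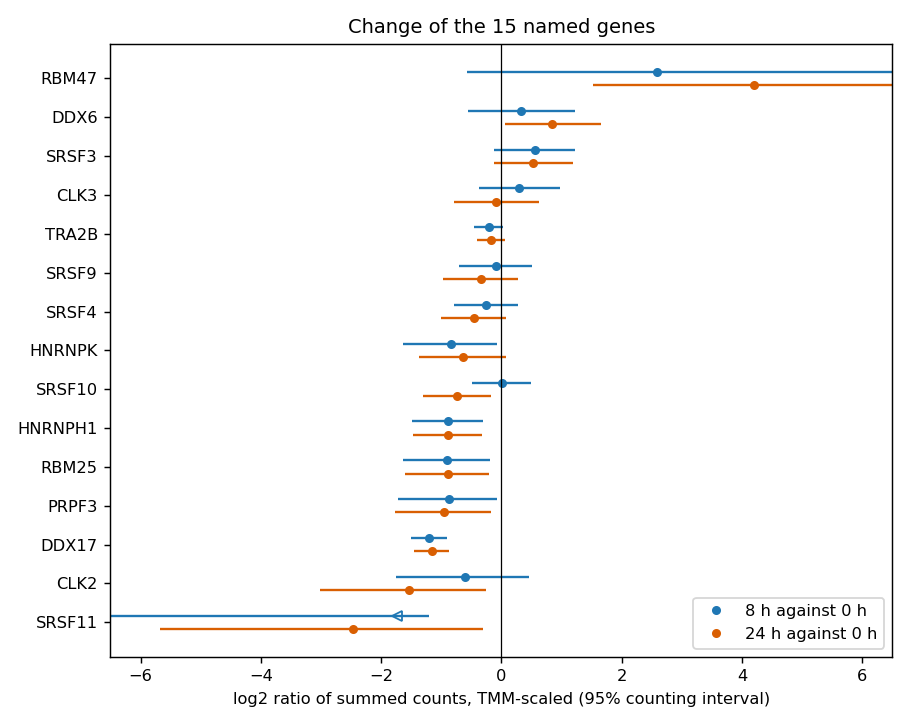
Log2 ratio of the summed member counts at 8 h and 24 h against 0 h for the 15 named genes, with exact 95% counting intervals as bars and an open triangle where the ratio was computed against 3 counts. Bars of RBM47 and SRSF11 run beyond the axis. DDX17, HNRNPH1, PRPF3, RBM25 and SRSF11 lie below 0 with their whole interval at both time points, RBM47 and DDX6 above 0 at 24 h.

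Among the SR proteins and their relatives, 13 members of 6 genes were measured. Their counts summed to 599, 452 and 465. The log2 ratio was -0.14 (-0.32 to 0.04) at 8 h and -0.25 (-0.43 to -0.07) at 24 h. Of the 13 members, 9 were lower at 8 h (69.2%) and 8 at 24 h (61.5%). Of the same types in other genes 62.7% and 58.8% were lower, and of all features 51.1% and 50.8%. The decrease of the sum at 8 h was smaller by value than in the DDX or HNRNP genes, which was not tested. Without DDX17 the DDX ratio at 8 h was -0.17, close to that of the SR genes.

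TRA2B encodes an SR-like protein that binds GA-rich exonic enhancers and limits its own expression through the splicing of its own pre-mRNA. Its 4 retained-intron members summed to 341, 246 and 280 counts (222, 192 and 197 CPM). The log2 ratios were -0.21 (-0.45 to 0.03) and -0.17 (-0.40 to 0.06), so the difference was within counting error at both time points. The 4 members have their own bases in separate stretches of the gene. ENST00000492417.5 (chr3:185916744-185929073) had 135, 95 and 99 counts. ENST00000487615.5 (chr3:185917329-185937420) had 134, 100 and 125. ENST00000466832.5, whose intron 4 is printed above, had 53, 44 and 44. ENST00000463328.5 had 19, 7 and 12 counts and a log2 ratio of -1.18 at 8 h. All 4 TRA2B members thus had their most counts at 0 h, while in CPM ENST00000487615.5 was as high at 24 h as at 0 h, with a log2 ratio of 0.01. Per kilobase of own bases, the levels at 0 h were 38.2 CPM for ENST00000492417.5, 34.2 for ENST00000487615.5, 20.7 for ENST00000466832.5 and 11.5 for ENST00000463328.5.

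SRSF10, an SR protein that turns into a splicing repressor when dephosphorylated, was the SR gene whose member changed late. Its transcript ENST00000485841.5 (chr1:23970379-23977652) had 79, 66 and 44 counts, or 51.4, 51.5 and 31.0 CPM. The 0 h and 8 h levels lay within counting error of each other, with a log2 ratio of 0.00 (-0.49 to 0.49). At 24 h it was -0.73 (-1.30 to -0.18) against 0 h and -0.73 (-1.32 to -0.16) against 8 h.

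SRSF4 and SRSF9 are SR proteins that bind exonic enhancers. The SRSF4 member, the longest of the set with 8128 bases (chr1:29147853-29173494), had 76, 53 and 51 counts. Its log2 ratios were -0.26 (-0.79 to 0.27) and -0.46 (-1.003 to 0.07). The 3 SRSF9 members summed to 55, 43 and 40 counts, with log2 ratios of -0.09 (-0.70 to 0.51) and -0.35 (-0.97 to 0.27). Exons of another gene, on either strand, cover all 1704 bases of the SRSF9 member ENST00000548326.1, which had 26, 18 and 14 counts. Neither SRSF4 nor SRSF9 differed beyond counting error.

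SRSF3, a small SR protein that also takes part in mRNA export, was higher by value at both time points. Its 3 members summed to 36, 44 and 48 counts, with log2 ratios of 0.55 (-0.12 to 1.23) and 0.53 (-0.13 to 1.19), which include 0. The member ENST00000620242.1 had 4, 10 and 4 counts. SRSF11 was on the other side. Its member ENST00000484162.5 (chr1:70230278-70251997) had 12, 0 and 2 counts. Computed against the limit of 3 counts, its log2 ratio at 8 h was -1.74, and the upper end of the counting interval of the 0 itself was -1.21. At 24 h the log2 ratio was -2.47 (-5.67 to -0.30). SRSF11 was the only member with a library at 0.

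Among the CLK kinases, 3 members of 2 genes were measured, and these 2 genes differed from each other by value. The CLK2 member ENST00000497188.1 (chr1:155262880-155269363, no defined coding sequence) had 22, 12 and 7 counts. Its log2 ratio was -0.61 (-1.76 to 0.47) at 8 h and -1.54 (-3.01 to -0.26) at 24 h. The CLK3 members summed to 39, 40 and 34 counts, with log2 ratios of 0.30 (-0.37 to 0.97) and -0.08 (-0.79 to 0.62). Within CLK3, the retained-intron transcript ENST00000562078.5 (chr15:74623620-74630116) had 4, 13 and 10 counts, and the lower end of its interval at 8 h was 0.27. The other CLK3 member, ENST00000564353.5, had 35, 27 and 24 counts. None of its 2244 own bases lie in coding introns of CLK3, and it starts further upstream (chr15:74598500-74608727). The sum of the CLK3 members thus joins transcripts that moved in opposite directions by value.

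Among the hnRNP genes, 11 members of 6 genes were measured and were lower in sum at both time points. They had 223, 138 and 147 counts, with log2 ratios of -0.43 (-0.75 to -0.12) and -0.49 (-0.80 to -0.18). By value, 8 of the 11 were lower at 8 h and 8 at 24 h.

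HNRNPH1, which binds runs of G in pre-mRNA, held most of this decrease. Its 3 members summed to 82, 37 and 41 counts, or 53.4, 28.9 and 28.9 CPM. The log2 ratio was -0.89 at both time points (-1.49 to -0.31 and -1.46 to -0.33). The members had 21, 6 and 7 counts (ENST00000513972.5), 29, 18 and 21 (ENST00000515481.5) and 32, 13 and 13 (ENST00000519943.1). All 3 were highest at 0 h. ENST00000513972.5 has 58 own bases, fewer than any other member, so its level per own base is uncertain.

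HNRNPK, which binds C-rich sequences, was also lower by value at both time points. Its 2 members summed to 47, 22 and 28 counts, with log2 ratios of -0.83 (-1.63 to -0.07) and -0.63 (-1.36 to 0.07). Exons of another gene, on either strand, cover 309 of the 562 bases of its member ENST00000376256.2. The remaining hnRNP genes HNRNPL, HNRNPM, HNRNPD and HNRNPU had intervals that include 0 at both time points.

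The SF3 and U2AF genes, subunits of the factors that recognise the branch point and the acceptor site, gave a single member. It belongs to SF3B2 and had 14, 11 and 14 counts. Its log2 ratios were -0.09 and 0.11. In these families 61 transcripts have a row and 33 of them had a count, all but this one under 10 in every library.

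The PRPF genes encode spliceosome components, and 5 members of 3 of them were measured. They summed to 74, 38 and 47 counts, with log2 ratios of -0.70 (-1.30 to -0.12) and -0.54 (-1.10 to 0.01). PRPF3, a protein of the U4/U6 particle, gave 3 of the 5 members. These 3 have no defined coding sequence and summed to 44, 20 and 21 counts, with log2 ratios of -0.87 (-1.72 to -0.08) and -0.95 (-1.78 to -0.17). All 3 PRPF3 members were lower than 0 h at both time points, and all 3 reached 10 counts at 0 h alone, so they had to be highest there. PRPF38B, whose member ENST00000485810.1 also lacks a defined coding sequence, had 22, 8 and 16 counts, with log2 ratios of -1.20 (-2.57 to 0.03) and -0.35 (-1.37 to 0.65) that include 0.

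The RBM genes encode proteins with RNA recognition motifs, and 7 members of 5 genes were measured. They summed to 142, 72 and 112 counts. The log2 ratio was -0.72 (-1.15 to -0.30) at 8 h and -0.23 (-0.60 to 0.14) at 24 h. From 8 h to 24 h it was 0.49 (0.05 to 0.94), and all 7 members were higher at 24 h than at 8 h by value. Of all 9609 features 4807 were higher, and of the 1372 transcripts of the same types in other genes 748. The members of RBM47 (1, 5 and 17 counts) and ENST00000479275.1 of RBM5 (6, 2 and 10) reached 10 counts at 24 h alone. They had to have their most counts there, and the rise of the sum includes them. Whether it lies beyond counting error without them was not tested.

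RBM25, which works with U1 snRNP in donor site choice, was at nearly the same level at 8 h and 24 h. Its member ENST00000532683.5 (chr14:73058542-73120129) had 56, 25 and 28 counts, or 36.5, 19.5 and 19.7 CPM. Its log2 ratios were -0.90 (-1.64 to -0.20) and -0.89 (-1.60 to -0.21). RBM47, a cofactor of the cytidine deaminase APOBEC1, went the other way. Its member ENST00000513044.1 (chr4:40542523-40629529) had 1, 5 and 17 counts. Its log2 ratio was 2.58 (-0.58 to 8.15) at 8 h and 4.20 (1.53 to 9.59) at 24 h. The ratio rests on 1 count at 0 h, and the member reached 10 counts at 24 h alone, so it had to be highest there. RBM47 had the highest log2 ratio of the set at both time points. RBM39, a U2AF-related protein, had an interval that includes 0, although its member ENST00000463004.5 had 15, 5 and 6 counts.

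The DDX genes encode RNA helicases, and 10 members of 8 genes were measured. They summed to 505, 239 and 296 counts. DDX17 alone held 355, 128 and 147 of these. DDX17 acts in splicing and as a partner of transcription factors. Its retained-intron transcript ENST00000216019.11 (chr22:38485681-38506294) keeps the intron 11 printed above. It was at 231 CPM at 0 h, 99.96 at 8 h and 104 at 24 h. Its log2 ratio was -1.21 (-1.51 to -0.91) at 8 h and -1.16 (-1.45 to -0.88) at 24 h, so the level was 0.433 and 0.448 of the 0 h level. Between 8 h and 24 h it was level, with a log2 ratio of 0.05 (-0.30 to 0.40). Per kilobase of own bases it was at 84.4 CPM at 0 h, above every member except 2 of HNRNPH1 whose own bases are 175 or fewer.

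Without DDX17 the DDX members showed no decrease beyond counting error. They summed to 150, 111 and 149 counts, with log2 ratios of -0.17 (-0.54 to 0.19) and 0.10 (-0.23 to 0.44), and the latter has the opposite sign to the family's ratio of -0.66 with DDX17. DDX6, a helicase of mRNA decapping and translational repression, was higher at 24 h. Its 2 members summed to 23, 24 and 38 counts, with log2 ratios of 0.32 (-0.56 to 1.21) and 0.84 (0.05 to 1.65). Scaled to total counts without TMM, the 24 h ratio was 0.76 and its interval (-0.03 to 1.57) included 0. ENST00000531971.1 (chr11:118781120-118790359) carried most of this, with 13, 17 and 26 counts. DDX60L, named after its values were seen, had 15, 7 and 21 counts, and its interval was above 0 from 8 h to 24 h only (0.15 to 2.91).

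**Figure D5:**
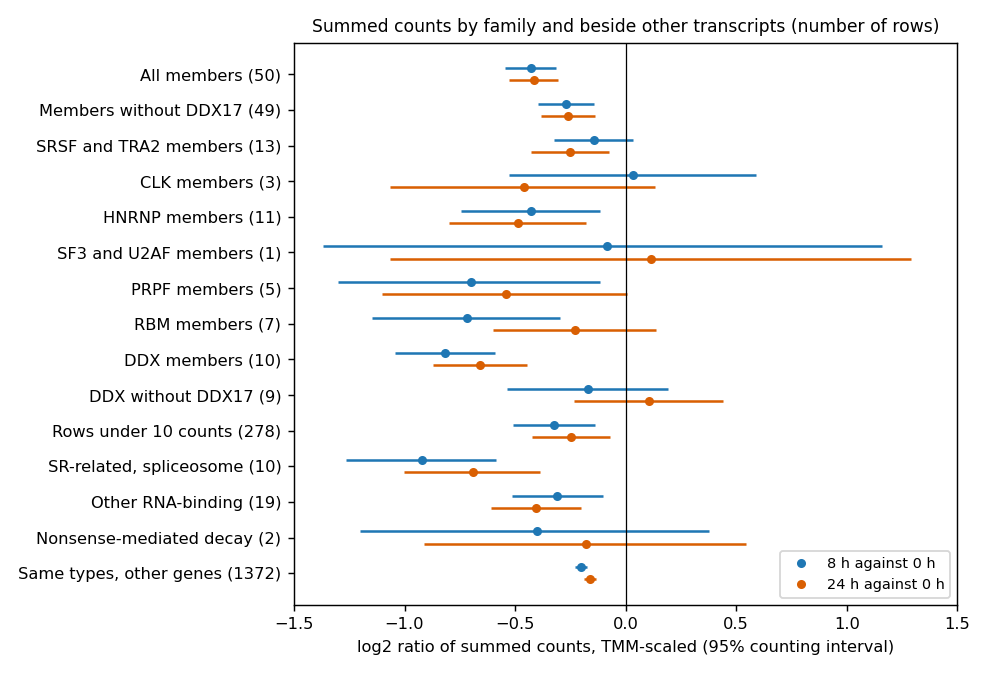
Log2 ratio of summed counts at 8 h and 24 h against 0 h for each gene family and, for comparison, for other sets of transcripts (number of rows in brackets), with exact 95% counting intervals as bars. The DDX family is at -0.82 and -0.66, and at -0.17 and 0.10 without DDX17.

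The other 16 genes had 21 to 98 member counts each over the libraries. Their log2 ratios ranged from -1.20 to 1.58 at 8 h and from -1.08 to 0.92 at 24 h, and every one of their intervals against 0 h included 0 with TMM scaling. At this depth a difference of their members from 0 h was not detectable. The 8 members with no defined coding sequence, from CLK2, CLK3, HNRNPM, PRPF3, PRPF38B and RBM14, were lower at both time points in all 8 cases. Of the transcripts of this type in other genes, 59.2% were lower at 8 h and 55.8% at 24 h. Of all features 51.1% and 50.8% were lower. Among the 8 members, those of PRPF3 and HNRNPM reached 10 counts at 0 h alone, so they had to have their most counts there. The 8 members summed to 169, 92 and 99 counts, with log2 ratios of -0.61 (-0.997 to -0.24) and -0.66 (-1.03 to -0.29). The 42 retained-intron members summed to 1449, 910 and 1023 counts, and 30 of them were lower at 8 h (71.4%) and 23 at 24 h (54.8%). Of the retained-intron transcripts of other genes, 63.6% and 59.6% were lower.

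Other genes of splicing and RNA decay were looked at through transcripts of the same 3 types. Of 34 SR-related and spliceosome genes, 7 had such transcripts with 10 or more counts, 10 transcripts in all. They summed to 243, 107 and 139 counts, with log2 ratios of -0.92 (-1.26 to -0.59) and -0.69 (-1.004 to -0.39). Without ARGLU1, left out after its values were seen, the ratios were -0.50 (-0.92 to -0.09) and -0.31 (-0.70 to 0.08). Of all 10 transcripts, 1 was over a log2 fold change of 1 and 3 were under -1 at 8 h, and 1 and 2 at 24 h. For all features these shares were 4.51% and 6.02% at 8 h, and 6.19% and 5.58% at 24 h. For the same types outside the members they were 5.10% and 14.5% at 8 h, and 6.41% and 11.6% at 24 h. ARGLU1, an SR-rich regulator whose own transcript keeps an intron, had 109, 28 and 39 counts and SNRNP70, the U1 70K protein, had 32, 10 and 8. CDK13, a kinase of RNA polymerase II, and EFTUD2, a GTPase of the U5 particle, were higher by value at 24 h, with 25, 33 and 34 and with 5, 5 and 12 counts. The EFTUD2 transcript reached 10 counts at 24 h alone, so it had to have its most counts there.

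Of 23 other RNA-binding regulators of splicing, 10 genes had 19 such transcripts. They summed to 486, 327 and 339 counts, with log2 ratios of -0.31 (-0.52 to -0.10) and -0.41 (-0.61 to -0.20). By log2 fold change, 6 were under -1 and 1 over 1 at 8 h, and 3 and 1 at 24 h. For all features these shares were 6.02% and 4.51% at 8 h, and 5.58% and 6.19% at 24 h. For the same types outside the members they were 14.5% and 5.10% at 8 h, and 11.6% and 6.41% at 24 h. SFPQ, a paraspeckle protein that binds intronic RNA, had 128, 55 and 70 counts over 2 transcripts, with log2 ratios of -0.96 (-1.44 to -0.49) and -0.76 (-1.20 to -0.33). MBNL1 and TAF15 went the other way, with 60, 83 and 62 counts and with 2, 8 and 14 counts. The TAF15 transcript reached 10 counts at 24 h alone, so it had to have its most counts there, and its change rests on 2 counts at 0 h. Of 14 nonsense-mediated decay genes, EIF4A3 and UPF3A gave 1 such transcript each, with 38, 24 and 31 counts in sum. ARGLU1, SNRNP70, CDK13, EFTUD2, SFPQ, MBNL1 and TAF15 were named after their values were seen.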

How the data were processed

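RNA-seq counts of THP-1 cells were analysed in 3 libraries, 1 each at 0 h, 8 h and 24 h of 0.2 µM GSK-LSD1, grouped by their labels. According to the submitters' processing notes, reads were trimmed with fastp and mapped with STAR to hg38. The values deposited by the authors are raw whole-number counts for each feature. Which tool, annotation and strand setting made them is not given in the sources used here. Feature names are protein accessions (73321) or Ensembl transcripts (140222), of which 128039 matched GENCODE v44. Accessions have no gene name here, so the coding mRNAs of the member genes were not analysed. Some genes are not reported here by name, and their counts remain in the sums over the members and families.

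Members and gene lists were chosen with earlier results of these data known. Library sizes were scaled with TMM factors of 1.04, 0.977 and 0.984 (edgeR 4.0.16, R 4.3.3). Log2 fold changes used a prior count of 2, and ratios of single or summed counts used none. Intervals are exact (Clopper-Pearson) at 95% and cover counting error only. Where a count was 0, the ratio is a bound against 3 counts, and no fold is given where both counts are 3 or fewer. Named are genes with 100 or more member counts, or with an interval against 0 h wholly on 1 side of 0 for a member or for the sum. Own bases, introns and printed sequences were taken with Python 3.11.15 from GENCODE v44 and the hg38 genome. The functions behind the fold changes and intervals were tested on simulated data. The alternatives were other library sizes (DESeq2 1.42.0 size factors and total counts with or without mitochondrially encoded genes), prior counts, thresholds, filters, a loess correction and subsets of the members. Precision is limited by the 1475938, 1310912 and 1444011 counts per library.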

Additional observations from a re-analysis of the deposited data

How the results depend on the processing

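The log2 ratio of the members' summed counts at 8 h and at 24 h against 0 h stayed below 0 under every alternative run. It was -0.23 at 8 h without the DDX and RBM genes, and -0.61 at 24 h with members of 50 or more counts in a library. Without the DDX17 member it was -0.27 at 8 h and -0.26 at 24 h, and without the DDX17 and TRA2B members -0.29 and -0.29, both chosen after seeing the data. The median log2 fold change at 8 h was 0.00 over all 328 transcripts with any count. The sign turned for the DDX sum at 24 h without DDX17 (0.10, also without TRA2B). Total counts in place of TMM moved the median of all features to -0.10 at 8 h and -0.09 at 24 h, and that of the members to -0.46 and -0.35, alike without mitochondrially encoded genes. The loess correction moved the members' median to -0.24 at 8 h and, from 8 h to 24 h, from 0.06 to -0.02. With total counts in place of TMM, the intervals of TRA2B at 8 h and 24 h (-0.30 and -0.25) lay below 0. Those of SRSF4 (-0.54) and HNRNPK (-0.72) at 24 h did so too. With members of 50 or more counts, the 7 left had medians of -0.24 and -0.45, against -0.23 and -0.33 for the same types in other genes. With 30 or more counts summed, the 35 left had -0.39 and -0.32, against -0.12 and -0.10 for 804 transcripts of the same types. After the loess correction the medians were -0.24 and -0.27 for the members, against -0.05 and -0.09 for the same types.

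The numbers of members past the fold depend on the settings. At a threshold of 0.5, 21 members were lower at 8 h, and 9 were higher and 16 lower at 24 h. From 8 h to 24 h, 9 were higher and 7 lower. At 8 h, percentile 18 of all features was -0.50, and percentile 34 of the same types in other genes was -0.49. At 24 h, percentiles 18 and 82 of all features were -0.50 and 0.50, and percentiles 32 and 82 of the same types -0.49 and 0.51. For the other settings no such background is given, so the numbers show only how they depend on the setting. At a threshold of 2, 0 were higher and 1 lower at 8 h, 1 higher and 0 lower at 24 h, and 0 and 0 from 8 h to 24 h. With a prior count of 5, 1 was higher and 3 lower at 8 h, 1 was higher at 24 h and 0 were lower from 8 h to 24 h. With the loess correction 3 were lower at 8 h. With 30 or more counts summed, 0 were higher at 8 h and 0 at 24 h, and 1 higher and 0 lower from 8 h to 24 h. With 50 or more counts in a library, 0 were higher and 1 lower at 8 h, 0 and 1 at 24 h, and 0 and 0 from 8 h to 24 h. With 1 count in any library as the filter, 17 were higher and 32 lower at 8 h, 13 and 27 at 24 h, and 13 and 10 from 8 h to 24 h. Without the DDX and RBM genes 1 was higher at 24 h and 1 from 8 h to 24 h. The numbers with an interval off 0 moved as well. With 30 or more counts summed, 0 were higher at 8 h, 1 at 24 h and 1 from 8 h to 24 h. With 50 or more counts, 0 were higher and 2 lower at 8 h, 0 and 3 at 24 h, and 0 higher from 8 h to 24 h. Without the DDX and RBM genes 3 were lower at 8 h, and 0 were higher at 24 h and 0 from 8 h to 24 h. Fewer transcripts tested is part of the construction of these filters, and beyond that the cause was not tested. No paired analysis was possible because each time point has 1 library, and for the same reason no library could be left out.

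Depth limits the genes with few counts most, since a count of 0 allows 3, and intervals against 0 h of the 16 genes outside the naming rule all included 0 with TMM. With total counts those of PRPF38B (-1.29) and RBM39 (-0.97) at 8 h lay below 0.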
